A study of Mus musculus with 6 samples.

Results

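The 34 genes described here make, sense, take up, move and remove cholesterol. They were chosen by gene symbol for their place in the pathway, and each is 1 of the 24060 gene rows of the count table. They comprise 17 enzymes of cholesterol synthesis, 3 lipoprotein receptors and 4 genes of intracellular sterol transport and removal. A further 5 encode the transcription factor SREBP (Srebf1 and Srebf2) or its regulators (Scap, Insig1 and Insig2). The last 5 are genes of sterol efflux, its lipid carrier and the sterol receptors LXR.

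RNA was sequenced from retinal ganglion cells (RGCs), the neurons whose axons form the optic nerve, of C57BL/6 mice at embryonic day 18 (E18, 3 samples, replicates 1, 3 and 4) and postnatal day 5 (P5, 3 samples, replicates 6, 8 and 9). The cells of both ages came from papain-dissociated retinas by immunopanning, with macrophages removed first on one antibody and RGCs then held on an antibody to CD90 (Thy1), and no genotype or treatment is named in the labels. The study sought genes tied to axon growth, which is stronger in embryonic than in postnatal RGCs. The labels name polyA RNA while the protocol names ribosomal RNA depletion, and the column of E18 replicate 1 carries the numbers 1, 2 and 5 without saying whether it is a pool.

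Neurons build long membranes and need sterol for them. Animal cells make cholesterol from acetyl-CoA through mevalonate, squalene and lanosterol, and the enzymes of this route are transcribed under SREBP, which SCAP escorts to the Golgi when membrane sterol is low and which the INSIG proteins hold back when it is high. In the central nervous system, cholesterol is made locally, glia secrete it on particles that carry apolipoprotein E, neurons take such particles up through receptors of the LDL receptor family, and neurons clear the surplus as an oxysterol made by CYP46A1.

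The samples held 81213639 to 114512853 counted reads. Levels are given as CPM (read counts scaled to a common library size), with library sizes normalized by the trimmed mean of M values (TMM), as mean ± SD of 3 samples, and log2 fold changes are of E18 over P5 with the standard error (SE) of the fit. A gene was called higher or lower where the p of edgeR's quasi-likelihood test, adjusted over the 16449 genes tested by the Benjamini-Hochberg method, was under 0.05. Nothing in the labels says that the samples came from separate litters, so the p-values measure only the spread between these samples. Summed levels of 13 RGC markers were 9103 to 10748 CPM at E18 and 9352 to 10494 CPM at P5, with 4 of the 13 higher at E18 and 5 lower. Thy1, the antigen used for panning, was among the lower ones, at 247 ± 56.2 CPM and 553 ± 119.7 CPM (log2 fold change -1.16, adjusted p = 0.00197). Of the markers of other cells, 6 of 9 of dividing cells, 5 of 7 of retinal progenitors and 3 of 5 of amacrine cells were higher at E18. Those of dividing cells summed to 231, 65.9 and 22.4 CPM in E18 replicates 1, 3 and 4 and to 15.5 to 28.6 CPM at P5, and those of retinal progenitors to 255, 118 and 21.8 CPM and to 13.9 to 17.4 CPM, and those of amacrine cells to 81.1, 176 and 10.1 CPM and to 10.9 to 14.8 CPM. Endothelial and pericyte markers, 1 of 8 tested higher (Kdr) and 3 lower (Rgs5, Pecam1 and Tek), summed to 72.8, 64.6 and 16.5 CPM and to 14.6 to 17.9 CPM. Of 6 oligodendrocyte markers tested 1 was higher (Mog) and 2 were lower (Mag and Olig1), yet their sums were 91.3, 90.7 and 91.5 CPM at E18 and 54.0 to 73.6 CPM at P5. Of 5 photoreceptor markers tested 1 was higher and 1 lower, with sums of 8.21, 4.51 and 2.20 CPM at E18 and 2.83 to 3.90 CPM at P5. Over all genes tested, 20.8% were higher at E18 and 22.5% lower.

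All 34 members passed the filter on low counts. Of these, 20 were higher at E18, 2 were lower and 12 were not called. Over all genes tested, 43.4% were called in either direction, 20.8% higher and 22.5% lower. The values of E18 and P5 did not overlap for 22 members, 19 with E18 above and 3 with E18 below, against 56.1% of all genes tested. The median log2 fold change was 0.67 over the members and 0.0047 over all genes tested. By role, 14 of 17 synthesis enzymes, 1 of 3 receptors, 2 of 4 transport and removal genes and 0 of 5 efflux, carrier and LXR genes were higher at E18. Of the 5 genes of SREBP and its regulators, 3 were higher (Srebf1, Srebf2 and Insig1). The lower members were Insig2 and Cyp46a1. In bulk RNA, a change in the share of cells that express a gene and a change in its RNA per cell cannot be told apart.

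**Figure D1:**
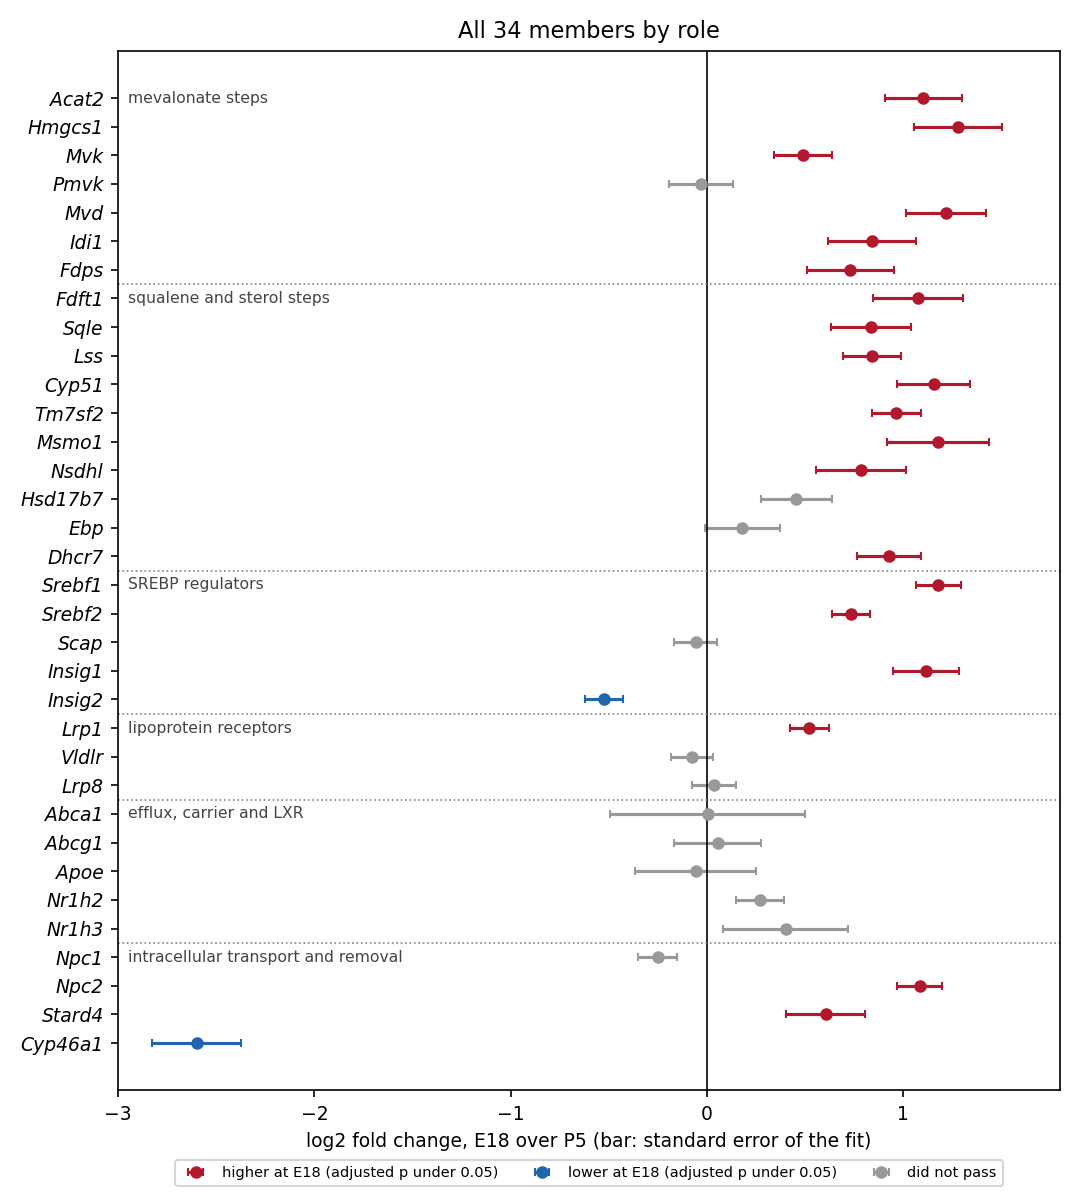
Log2 fold change of E18 over P5 for each of the 34 members, grouped by role, with bars for the SE of the fit. Red points were higher at E18, blue points were lower and grey points did not pass the adjusted threshold of 0.05. The synthesis enzymes lie between -0.03 (Pmvk) and 1.28 (Hmgcs1), the efflux, carrier and LXR genes lie between -0.06 (Apoe) and 0.40 (Nr1h3) and were not called, and Cyp46a1 stands apart at -2.60.

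The stretches before the start sites are shown first. Whether they bear on the levels was not tested. Sequences came from the RefSeq promoter table of GRCm38.p6, the assembly behind mm10, which holds 250 bases before to 50 bases after a start. It has 42 promoters for 28 members, and Fdps, Fdft1, Sqle, Abcg1, Npc1 and Stard4 have no entry there. Each promoter was searched on both strands for the CCAAT box (CCAAT, bound by NF-Y), the GC box (GGGCGG, bound by Sp factors), the E-box (CACGTG) and the sterol regulatory element (TCACNCCAC, the SRE, bound by SREBP), none of which lies within another. The windows below are 5′ to 3′ on the gene's strand and avoid annotated exons. Capitals mark matches to the CCAAT box, which reads ATTGG on the other strand, the SRE and the E-box. Hmgcs1 is shown as the one member with an exact SRE match. Mvk, Mvd, Lss and Ebp are enzymes with different changes, and their windows hold 4, 2, 1 and 1 CCAAT boxes. Promoter matches that lie outside the windows are not shown. Srebf2, Insig1 and Cyp46a1 stand for SREBP, its regulators and removal.
Hmgcs1 (chr13:119690171-119690320, + strand): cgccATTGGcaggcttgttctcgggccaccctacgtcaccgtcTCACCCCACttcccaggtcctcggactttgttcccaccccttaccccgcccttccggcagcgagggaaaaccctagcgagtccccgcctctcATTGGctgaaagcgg
Mvk (chr5:114444149-114444268, + strand): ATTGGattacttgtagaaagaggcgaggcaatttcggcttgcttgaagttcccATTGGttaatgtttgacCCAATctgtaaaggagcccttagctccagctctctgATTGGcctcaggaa
Mvd (chr8:122443423-122443542, - strand): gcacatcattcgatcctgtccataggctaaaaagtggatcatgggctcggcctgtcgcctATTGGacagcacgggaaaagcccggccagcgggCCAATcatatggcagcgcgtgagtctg
Lss (chr10:76531485-76531584, + strand): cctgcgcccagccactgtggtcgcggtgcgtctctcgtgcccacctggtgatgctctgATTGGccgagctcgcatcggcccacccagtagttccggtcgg
Ebp (chrX:8193513-8193632, - strand): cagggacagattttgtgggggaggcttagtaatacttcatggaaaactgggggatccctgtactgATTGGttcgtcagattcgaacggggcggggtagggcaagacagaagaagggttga
Srebf2 (chr15:82147069-82147169, + strand): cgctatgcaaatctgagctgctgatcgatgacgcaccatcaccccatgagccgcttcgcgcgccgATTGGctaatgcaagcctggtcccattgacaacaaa
Insig1 (chr5:28071262-28071361, + strand): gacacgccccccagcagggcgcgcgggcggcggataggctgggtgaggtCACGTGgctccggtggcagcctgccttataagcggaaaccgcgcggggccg
Cyp46a1 (chr12:108334146-108334245, + strand): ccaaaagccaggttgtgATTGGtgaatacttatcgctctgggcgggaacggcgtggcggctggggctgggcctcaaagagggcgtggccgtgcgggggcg

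The SRE match of Hmgcs1 begins at base -137 from the start and lies between a pair of CCAAT boxes. This was 1 of the 14 synthesis enzymes with a promoter, against 1.44% of the 27025 genes in the promoter table and 1.39% of the tested genes in it. A CCAAT box lay in the promoter of 13 of the 14 enzymes (92.9%), with Acat2 as the exception, and in Dhcr7 in only 1 of its 3 promoters and in Pmvk in 1 of its 2. The share was 41.1% of all genes and 42.4% of tested genes. A GC box was present in 13 of 14 enzymes (92.9%), with Pmvk as the exception, against 38.2% of all genes and 64.8% of tested genes, and an E-box in 2 of 14 (14.3%), Hsd17b7 and Dhcr7, against 8.09% of all genes and 1315 of the 11978 tested genes in the table. Pmvk, Hsd17b7 and Ebp, which were not called, hold CCAAT boxes as the called enzymes do. These are exact matches of letters, so a stretch that differs by 1 base was not counted, and no binding was measured.

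**Figure D2:**
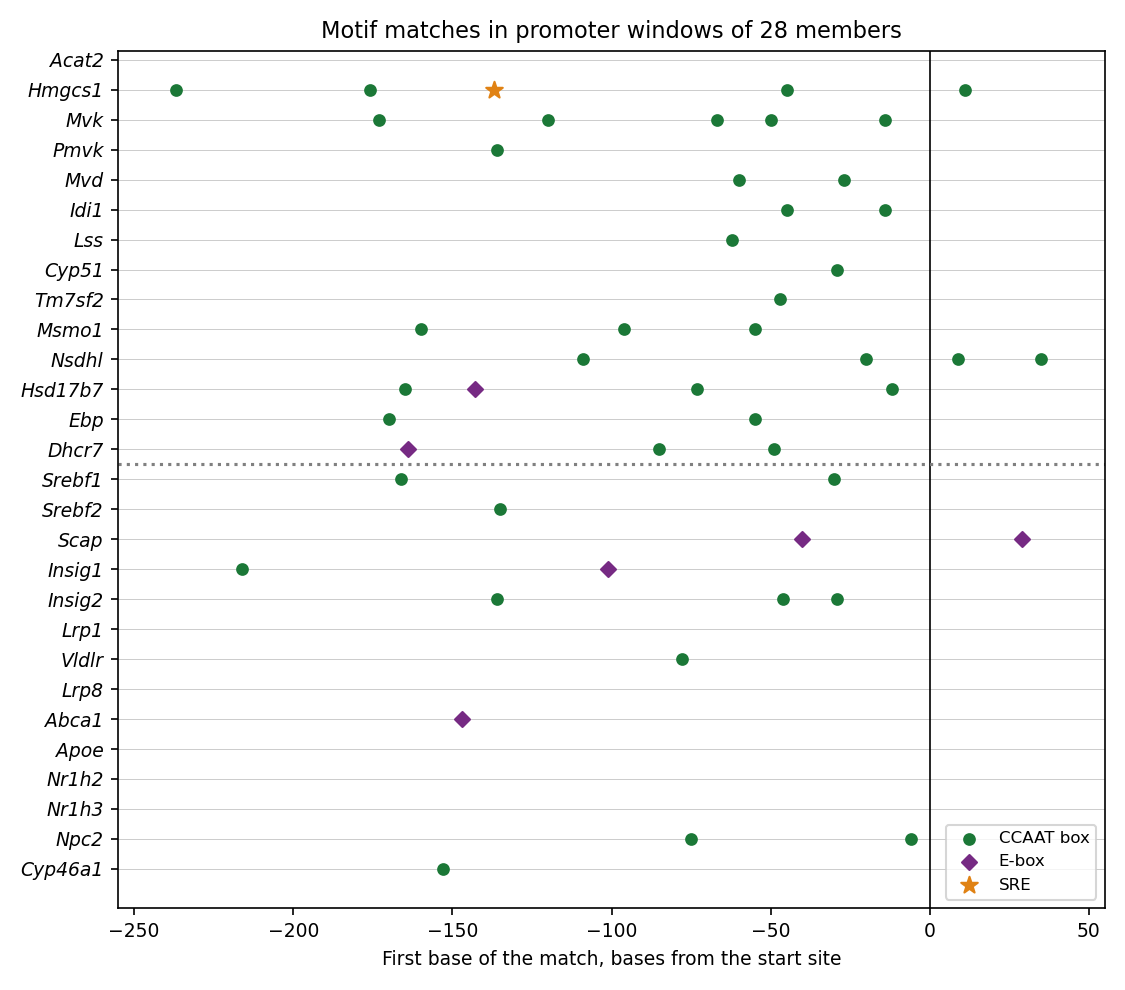
Distance of each motif match from the start site, in bases, for the 28 members with a promoter in the RefSeq table, with matches of all starts of a gene drawn in 1 row and a dotted line between the synthesis enzymes and the other members. GC boxes are not drawn. CCAAT matches occur in 13 of 14 synthesis enzymes, and the single SRE match is that of Hmgcs1.

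The mevalonate steps turn acetyl-CoA into farnesyl diphosphate. Of the 7 enzymes measured here, 6 were higher at E18 and Pmvk was not called, with a median log2 fold change of 0.84. Hmgcs1 (chr13:119690379-119708260), which makes HMG-CoA, the precursor of mevalonate, was at 2681, 3075 and 3180.2 CPM in E18 replicates 1, 3 and 4 and at 1750.3, 1021 and 905 CPM in P5 replicates 6, 8 and 9. Each E18 sample was above each P5 sample, and P5 replicate 6 lay apart from the other P5 samples, toward E18. The means were 2979 ± 263 and 1225 ± 458 CPM, a log2 fold change of 1.28 (SE 0.22, adjusted p = 0.00265). Per kilobase of transcript, Hmgcs1 had the highest level of all 34 members at both ages, at 860 and 354 CPM per kb, ahead of Fdps at 239 and 144 CPM per kb. Gm48342 overlaps 12.1% of its exon bases on the opposite strand.

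Mvd (chr8:122433601-122443422), which decarboxylates mevalonate diphosphate to the isoprene unit, was at 77.3, 94.0 and 109.7 CPM at E18 and 53.4, 31.0 and 36.3 CPM at P5, without overlap. Its log2 fold change of 1.22 (SE 0.21, adjusted p = 0.00232) was the second in size among the synthesis enzymes. Acat2, which condenses acetyl-CoA units, was at 282 ± 30.5 CPM at E18 and 131 ± 40.9 CPM at P5, with a log2 fold change of 1.10 (SE 0.20, adjusted p = 0.00286). Of the 50-base stretches of its transcript, 45.9% also occur in Acat3, so the counts of this pair are less certain. Acat3 itself was at 5.29 and 2.12 CPM.

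Smaller differences were measured at the kinase, isomerase and prenyl transferase steps. Idi1, which interconverts the isoprene units, had a log2 fold change of 0.84 (SE 0.22, adjusted p = 0.0161), Fdps, which joins them to farnesyl diphosphate, 0.73 (SE 0.22, adjusted p = 0.0269), and Mvk, the first mevalonate kinase, 0.49 (SE 0.15, adjusted p = 0.0278). Each lost its call when certain single samples were left out. Mvk did not pass without E18 replicate 1, 3 or 4 (log2 fold change 0.43 to 0.53, adjusted p up to 0.0854). Fdps did not pass without E18 replicate 3 or 4 or P5 replicate 8 or 9 (0.56 to 0.74, adjusted p up to 0.0795), and Idi1 did not pass without P5 replicate 9 (0.73, adjusted p = 0.0581). For Fdps, 82.0% of the 50-base stretches occur in other transcripts (Gm43738 and Gm3571), and for Idi1 21.3%, so their levels are less certain.

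Pmvk, the next kinase in the route, was at 76.0, 82.5 and 90.5 CPM at E18 and 100.8, 63.3 and 89.9 CPM at P5. The E18 values all lay within the P5 range. Its log2 fold change was -0.03 (SE 0.16, adjusted p = 0.899), with a 95% interval of -0.40 to 0.34. Its difference from the other enzymes was not tested.

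The later steps close and trim the sterol rings. Of 10 enzymes, 8 were higher at E18, and Hsd17b7 and Ebp were not called, with a median log2 fold change of 0.88. Cyp51 (chr5:4081145-4104746), the lanosterol demethylase, was at 490, 544 and 589 CPM at E18 and 326, 202 and 199.9 CPM at P5, a log2 fold change of 1.16 (SE 0.19, adjusted p = 0.00192). Msmo1, which oxidizes a sterol methyl group for removal, was at 164, 196 and 217 CPM and at 126, 58.4 and 70.2 CPM, a log2 fold change of 1.18 (SE 0.26, adjusted p = 0.00733). In both enzymes the groups did not overlap and P5 replicate 6 was the P5 sample nearest to E18.

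Squalene synthase, Fdft1, which commits farnesyl diphosphate to sterols, was at 396 ± 45.9 CPM at E18 and 188 ± 69.0 CPM at P5 (log2 fold change 1.08, SE 0.23, adjusted p = 0.00641). Ctsb overlaps part of its exons on the opposite strand, and 10.9% of its 50-base stretches occur in Gm6781. Ctsb was lower at E18, at a log2 fold change of -0.90 (adjusted p = 0.00209). Whether reads of Ctsb entered the count of Fdft1 was not tested. Sqle, the squalene epoxidase, was at 328 ± 35.3 and 183 ± 58.6 CPM (0.84, SE 0.20, adjusted p = 0.0111). Lss, which folds the epoxide into lanosterol, was at 253 ± 26.1 and 141 ± 27.2 CPM (0.84, SE 0.15, adjusted p = 0.00273).

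Among the sterol reductases, Tm7sf2 was at 41.3, 42.6 and 50.9 CPM at E18 and 25.8, 20.7 and 22.5 CPM at P5. It was the synthesis enzyme with the smallest spread at P5, with a coefficient of variation (CV) of 11.2%, and the smallest adjusted p (log2 fold change 0.97, SE 0.13, adjusted p = 0.000803). Vps51 overlaps 12.1% of its exon bases. Dhcr7, which reduces the last double bond on the way to cholesterol, had a log2 fold change of 0.93 (SE 0.16, adjusted p = 0.00273). Nsdhl, a dehydrogenase of the demethylation complex, had one of 0.79 (SE 0.23, adjusted p = 0.0245) that did not pass without E18 replicate 3 or 4 or P5 replicate 9 (0.70 to 0.80, adjusted p up to 0.0819).

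Hsd17b7, the reductase of that complex, was at 56.2, 64.6 and 70.4 CPM at E18 and 61.0, 37.8 and 40.7 CPM at P5. E18 replicate 1 lay below P5 replicate 6, the only overlap. The log2 fold change was 0.46 (SE 0.18, adjusted p = 0.0694), which became 0.68 (adjusted p = 0.00805) without P5 replicate 6 and also passed with DESeq2, with the likelihood ratio and exact tests of edgeR and without the filter on low counts. Ebp, the sterol isomerase, was at 16.6, 18.07 and 17.2 CPM at E18 and 18.41, 10.6 and 16.7 CPM at P5, with a log2 fold change of 0.18 (SE 0.19, adjusted p = 0.463, 95% interval -0.25 to 0.61). Its sign turned to -0.04 without P5 replicate 8.

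**Figure D3:**
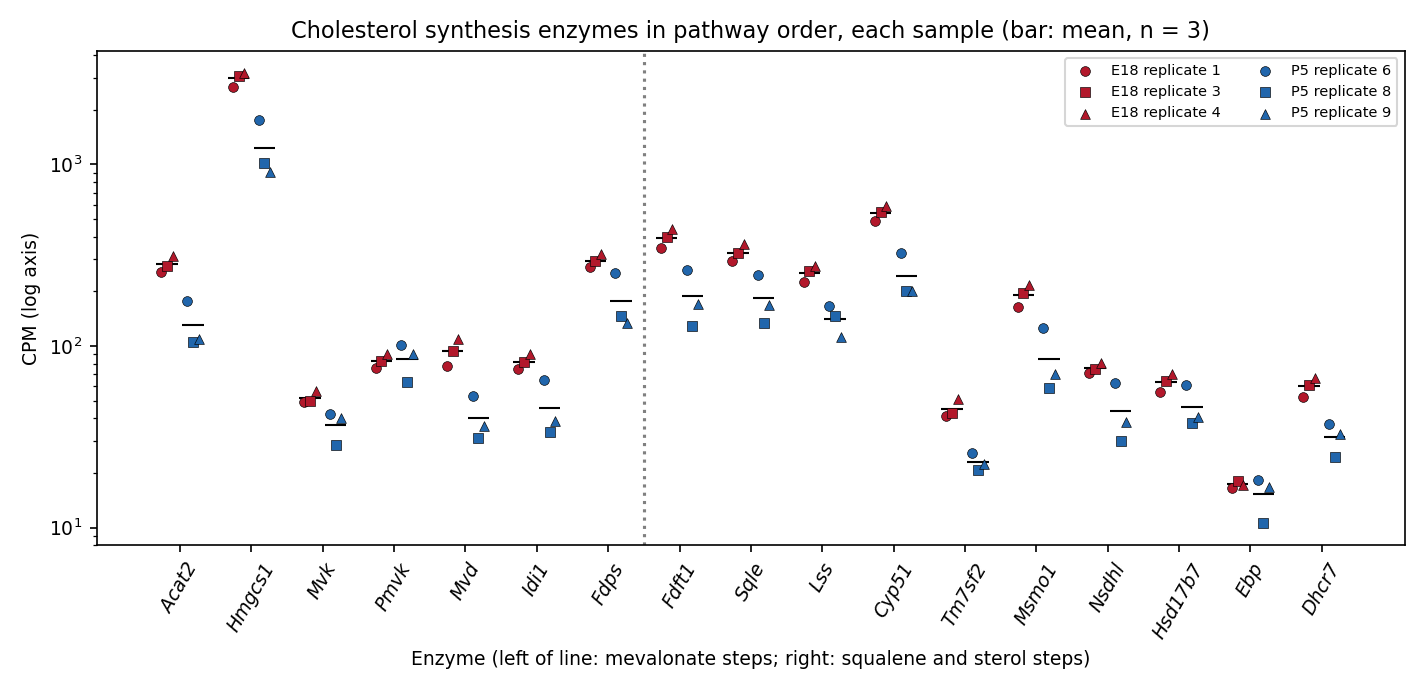
CPM of the 17 synthesis enzymes in each of the 6 samples on a log axis, with E18 in red, P5 in blue, a mark for each replicate and a bar for the mean of 3. P5 replicate 6 is the highest P5 sample in all 17 enzymes, and E18 lies wholly above P5 in 14 of them.

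The enzymes were ordered alike across samples. Within E18, replicate 1 was the lowest in 17 of 17 enzymes and replicate 4 the highest in 16 of 17. Within P5, replicate 6 was the highest in 17 of 17, and the lowest was replicate 8 in 13 and replicate 9 in 4. The CV was higher at P5 than at E18 in 16 of 17 enzymes, with Tm7sf2 as the exception, and its median was 10.3% at E18 and 29.8% at P5. Over all genes tested, E18 replicate 1 was the lowest of its age in 38.3%, E18 replicate 4 the highest in 40.9% and P5 replicate 6 the highest in 28%, and the CV was higher at P5 in 71.9%, with medians of 7.94% and 14.8%. The RGC marker sums had the same E18 order as the enzymes, 9103, 9476 and 10748 CPM, as did the summed fatty acid synthesis genes, 4657, 4878 and 5202 CPM. These are descriptions over 17 enzymes that share the same 6 libraries.

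Summed over the 17 enzymes, synthesis transcripts came to 5242, 5936 and 6335 CPM at E18 and 3778, 2221 and 2225 CPM at P5. The sums did not overlap. Their means were 5838 ± 553 and 2741 ± 898 CPM, a ratio of 2.13, and 2.63 without P5 replicate 6. Hmgcs1 alone contributed 2979 CPM at E18 and 1225 CPM at P5 to these means. E18 replicate 4, in which the dividing-cell markers (22.4 CPM) were within the P5 range, had the highest synthesis sum, and E18 replicate 1, with the most dividing-cell RNA (231 CPM), had the lowest of its age. These are single libraries, and the part of dividing cells in the synthesis sums was not tested. Of the 14 calls among the enzymes, 10 held in all 13 alternative settings, and no enzyme was called lower in any.

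**Figure D4:**
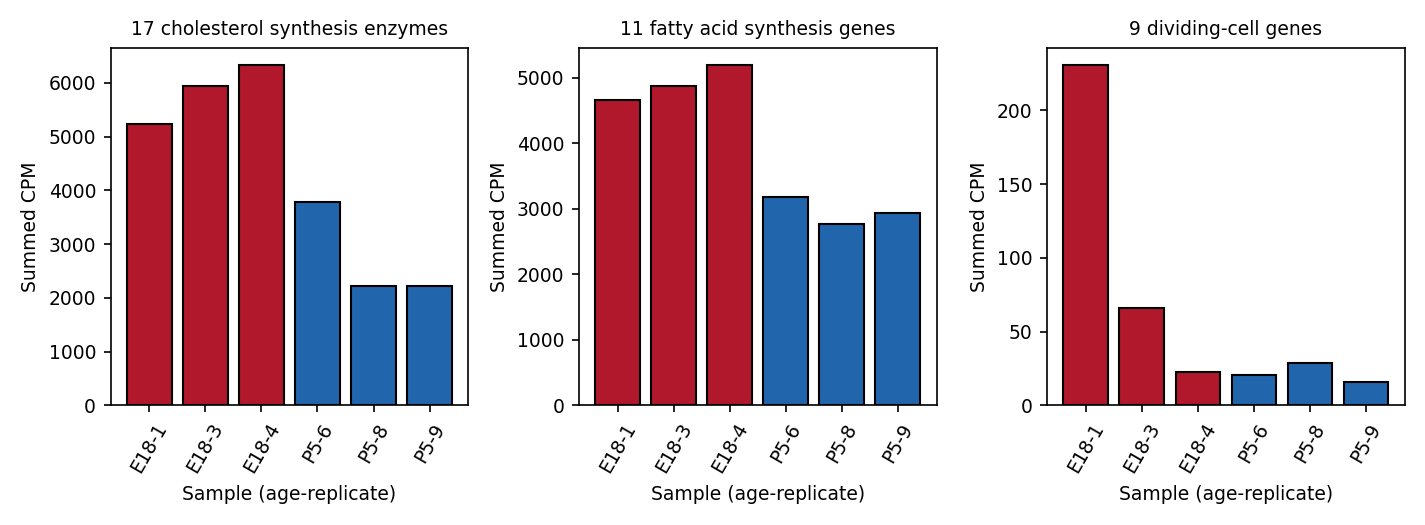
Summed CPM of the 17 cholesterol synthesis enzymes, 11 fatty acid synthesis genes and 9 dividing-cell genes, 1 bar a sample from 0, red for E18 and blue for P5. The synthesis sums run from 5242 to 6335 CPM at E18 and from 2221 to 3778 CPM at P5, while the dividing-cell sums lie between 22.4 and 231 CPM within E18.

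Both SREBP genes were higher at E18. Srebf1 (chr11:60199089-60222581), whose product acts mostly on fatty acid genes, was at 40.6, 34.5 and 35.2 CPM at E18 and 16.3, 14.8 and 17.6 CPM at P5. Srebf2 (chr15:82147181-82205379), whose product acts mostly on sterol genes, was at 163, 153 and 181 CPM and at 107.8, 96.3 and 94.7 CPM. Neither gene's groups overlapped. P5 replicate 6 was the highest P5 sample for Srebf2, as for the enzymes, but not for Srebf1. The log2 fold changes were 1.18 (SE 0.12, adjusted p = 0.000271) for Srebf1 and 0.74 (SE 0.10, adjusted p = 0.000897) for Srebf2. The CV at P5 was 8.58% for Srebf1 and 7.21% for Srebf2.

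The INSIG genes, whose products hold SCAP and SREBP in the endoplasmic reticulum, moved in opposite directions. Insig1 (chr5:28071363-28078662), itself a known SREBP target, was at 312, 362 and 389 CPM at E18 and 209.96, 145 and 135 CPM at P5. It was ordered across samples like the enzymes, lowest in replicate 1 of E18 and highest in replicate 6 of P5, with a log2 fold change of 1.12 (SE 0.17, adjusted p = 0.00146). Insig2 (chr1:121304353-121332589) was at 27.4, 25.0 and 27.6 CPM at E18 and 35.6, 40.1 and 39.2 CPM at P5, so each E18 sample was below each P5 sample. Its log2 fold change was -0.52 (SE 0.10, adjusted p = 0.00380). Per kilobase of transcript, Insig1 stood at 131 CPM per kb at E18 and 60.5 CPM per kb at P5, and Insig2 at 20.6 and 29.7 CPM per kb, so Insig1 was the more abundant at both ages.

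Scap, the escort of SREBP, was at 77.1, 69.98 and 83.2 CPM at E18 and 71.9, 78.4 and 89.3 CPM at P5, and the groups overlapped. Its log2 fold change was -0.06 (SE 0.11, adjusted p = 0.703, 95% interval -0.31 to 0.19). 5830462I19Rik overlaps 13.2% of its exon bases on the opposite strand.

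**Figure D5:**
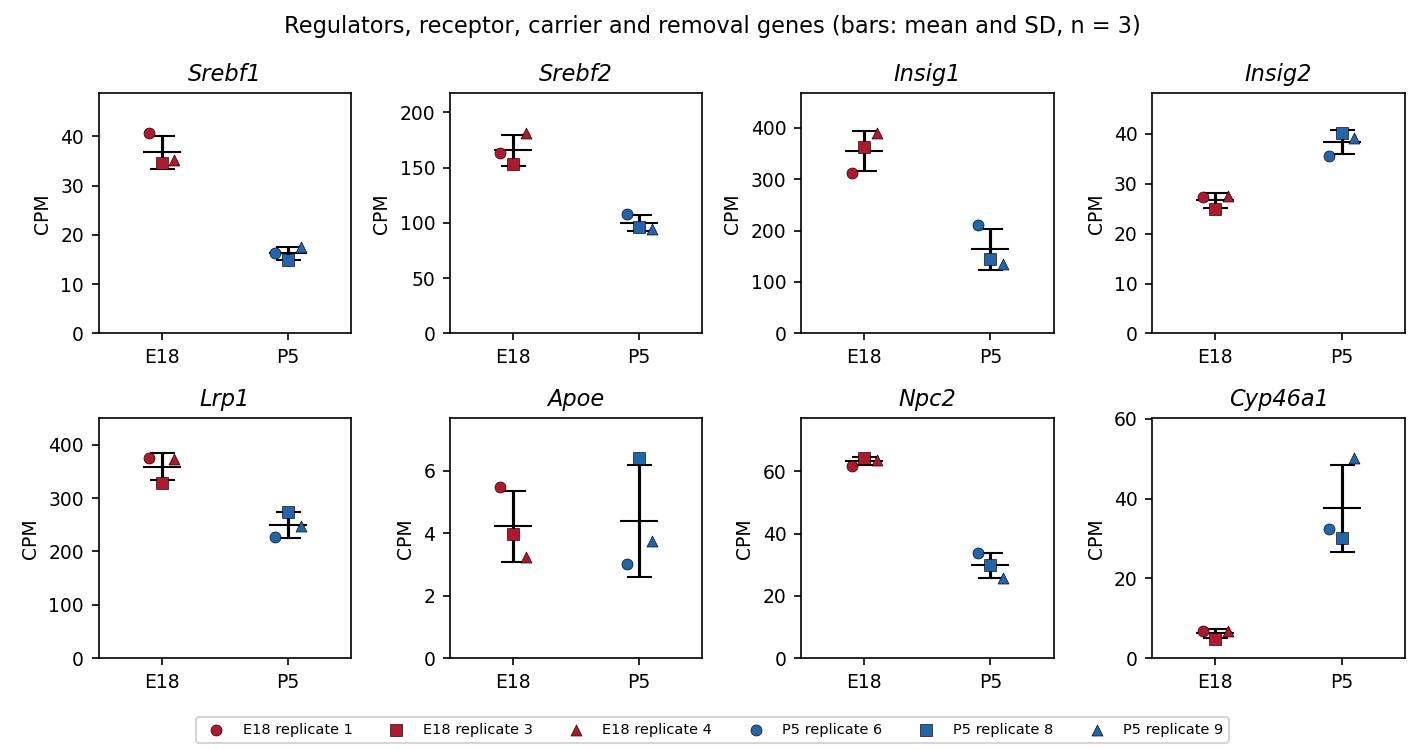
CPM of 8 regulator, receptor, carrier and removal genes in each sample, 1 panel a gene with axes from 0, and bars for the mean and SD of 3 samples. Srebf1, Srebf2, Insig1, Lrp1 and Npc2 lie higher at E18, Insig2 and Cyp46a1 lie lower at E18, and the ages overlap for Apoe.

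Lrp1 was the only receptor of the 3 to be called. This large endocytic receptor of apolipoprotein E particles (chr10:127538161-127621148) was at 375, 329 and 373 CPM at E18 and 227, 274 and 248 CPM at P5, without overlap. Its log2 fold change was 0.52 (SE 0.10, adjusted p = 0.00412). Vldlr and Lrp8, which bind both lipoproteins and reelin, did not pass. Vldlr was at 115, 136 and 119.6 CPM at E18 and 117, 144 and 129 CPM at P5, with a log2 fold change of -0.07 (SE 0.11, adjusted p = 0.608, 95% interval -0.32 to 0.17). Lrp8 was at 113, 112 and 109 CPM and at 101, 127 and 98.6 CPM, with a log2 fold change of 0.04 (SE 0.11, adjusted p = 0.807, 95% interval -0.21 to 0.29).

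Per kilobase of transcript, the order of the receptors was the same at both ages, with the length of Lrp8 taken from the non-coding RefSeq record that the table names. Lrp8 stood at 33.9 CPM per kb at E18 and 33.0 CPM per kb at P5, Lrp1 at 24.1 and 16.8 CPM per kb, and Vldlr at 15.5 and 16.3 CPM per kb. At P5 the levels of Lrp1 and Vldlr differed by less than their spread (SD 1.604 and 1.704 CPM per kb).

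None of the 5 efflux, carrier and LXR genes was called, and the ages overlapped in each. Abcg1, a sterol exporter, was at 45.5, 50.1 and 47.9 CPM at E18 and 29.9, 62.3 and 45.8 CPM at P5, so the P5 samples spread on both sides of E18 (log2 fold change 0.06, SE 0.22, adjusted p = 0.855, 95% interval -0.45 to 0.56). Apoe, the main lipid carrier secreted by glia, was low in each sample, at 5.47, 3.97 and 3.24 CPM at E18 and 3.01, 6.40 and 3.76 CPM at P5 (-0.06, SE 0.31, adjusted p = 0.895, 95% interval -0.76 to 0.64). Abca1, the other exporter, ran from 0.618 to 2.17 CPM at E18 and from 1.03 to 2.56 CPM at P5. Its 95% interval of -1.12 to 1.13 means that a change within those bounds was not excluded here.

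The LXR genes encode nuclear receptors that oxysterols switch on and that raise transcription of the exporters. Nr1h2 was at 27.8 ± 3.51 CPM at E18 and 23.0 ± 1.64 CPM at P5 (log2 fold change 0.27, SE 0.12, adjusted p = 0.106). Nr1h3 was at 0.723 ± 0.132 and 0.545 ± 0.168 CPM (0.40, SE 0.32, adjusted p = 0.335). Abca1 had the lowest level per kilobase of all members at either age, 0.160 CPM per kb. The markers of Müller glia and astrocytes summed to 415 to 505 CPM at E18 and 427 to 464 CPM at P5. Glul (320 and 251 CPM) and Dkk3 (123 and 184 CPM) made up most of these sums, and the other markers had means of at most 6.496 CPM at either age, with Slc1a3 at 16.2, 2.80 and 0.475 CPM in E18 replicates 1, 3 and 4 and 1.11 to 1.78 CPM at P5. The markers of microglia summed to 2.17 to 3.13 CPM and 1.71 to 2.33 CPM, with Tmem119 at 0 CPM at P5. Of those tested, 3 of 9 glial markers were higher at E18 and 1 lower, and 1 of 7 microglial markers was higher. Over all genes tested, 20.8% were higher and 22.5% lower. The part of such cells in the level of Apoe and Abca1 was not tested.

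Of the intracellular genes, Npc2 (chr12:84754562-84773152), the soluble lysosomal protein that hands cholesterol to the membrane protein NPC1, was at 61.8, 64.2 and 63.6 CPM at E18 and 33.6, 30.1 and 25.7 CPM at P5. The E18 samples lay close together and far above P5, with a log2 fold change of 1.09 (SE 0.11, adjusted p = 0.000355). Its partner Npc1 was at 67.4, 69.7 and 70.7 CPM at E18 and 72.6, 89.3 and 85.2 CPM at P5. The values of Npc1 did not overlap, with E18 lower, but the log2 fold change of -0.25 (SE 0.10, adjusted p = 0.0714) did not pass, and it became -0.35 (adjusted p = 0.0203) without P5 replicate 6.

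Stard4, a cytosolic sterol carrier and a known SREBP target, was at 26.8, 33.0 and 33.0 CPM at E18 and 27.4, 16.0 and 17.5 CPM at P5. As with the enzymes, E18 replicate 1 was the lowest and P5 replicate 6 the highest of its age, and here these crossed. Its log2 fold change of 0.61 (SE 0.20, adjusted p = 0.0377) did not pass without E18 replicate 3 or 4 or P5 replicate 8 or 9 (0.44 to 0.56, adjusted p up to 0.118).

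Cyp46a1 (chr12:108334381-108362234), the hydroxylase that turns cholesterol into the oxysterol that leaves the brain, had the widest difference of the 34 members. It was at 6.84, 4.88 and 6.89 CPM at E18 and 32.3, 30.2 and 50.1 CPM at P5, so even the lowest P5 sample was far above E18. The means were 6.20 ± 1.15 and 37.5 ± 10.96 CPM, 6.06-fold higher at P5, with a log2 fold change of -2.60 (SE 0.23, adjusted p = 0.000189). Over the alternative settings, the log2 fold change stayed between -2.75 and -2.34. Per kilobase of transcript, it moved from rank 32 of the 34 members at E18, at 2.93 CPM per kb, to rank 18 at P5, at 17.7 CPM per kb.

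Genes outside the 34 that belong to the same biology were given by list. Over all genes tested, 20.8% were higher at E18 and 22.5% lower. Of 11 genes of fatty acid synthesis, which SREBP also drives, 6 were higher at E18 and 1 was lower, Me1 (-0.63), a source of NADPH, with a median log2 fold change of 0.61. Fads2 and Scd1, which desaturate fatty acids, had log2 fold changes of 1.28 (adjusted p = 0.000422) and 1.14 (adjusted p = 0.000920), Scd2 had 1.01 (adjusted p = 0.000227) and Acly, which makes cytosolic acetyl-CoA, had 0.82 (adjusted p = 0.00166). Their summed level was 4657, 4878 and 5202 CPM at E18 and 3186, 2768 and 2932 CPM at P5, a ratio of 1.66 against the 2.13 of the sterol enzymes.

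Other genes of the isoprenoid route and the remaining receptors were divided. Of 7 other isoprenoid genes, 2 were higher at E18, Aacs (0.59) and Por (0.46), which passes electrons to CYP51, and 4 were lower, Cyb5r3 (-0.83) and Pdss2 (-0.63), which works in ubiquinone synthesis, with Dhdds (-0.42) and Ggps1 (-0.30). Of 16 other genes of the LDL receptor family and its adaptors that were tested, 6 were higher and 5 lower, with a median of -0.03. These were 37.5% and 31.25% of the list, against 20.8% and 22.5% of all genes tested. Lrp5, a Wnt co-receptor, had a log2 fold change of 1.81, and Lrp2 (1.04), Ldlrad3 (0.76), Lrp6 (0.59), Lrp3 (0.44) and Reln (0.35), which encodes reelin, were also higher. By contrast, Lrp1b (-1.57), Dab1 (-1.46), the adaptor of reelin signalling, and Sorl1 (-1.38), a sorting receptor, were lower at E18, as were Lrp11 (-0.58) and Lrpap1 (-0.54). Of 19 other sterol transfer, carrier and lysosomal genes tested, 3 were higher and 6 lower, with a median of -0.12. These were 15.8% and 31.6% of the list, against 20.8% and 22.5% of all genes tested. Gramd1a, which moves sterol from the plasma membrane inward, had a log2 fold change of 0.88, and Abca7 (0.49) and Stard3 (0.39) were also higher. Lower at E18 were Nceh1 (-2.06), which hydrolyses cholesteryl esters, the carrier Clu (-1.19) and Gramd1c (-1.08). Osbpl1a (-0.70), Abcg4 (-0.51) and Osbpl2 (-0.47) were lower as well.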

How the data were processed

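The authors aligned paired-end reads to mm10 with STAR and counted the reads of each RefSeq gene with HT-seq, and the submitters' processing notes also name CASAVA 1.8.2. The deposited raw counts per gene and sample were the values tested. The normalized counts that the authors deposited are a signal scaled for library size and were not used. The log2 fold changes, p-values and false discovery rates deposited by the authors come from their EdgeR comparison and were left out, as was a deposited score that ranks genes. The strand setting and the treatment of reads with several matches are not given in the sources used here, which makes counts of overlapping or near-identical genes uncertain.

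Samples were grouped by the age in their titles. Counts were filtered with filterByExpr and normalized by TMM. E18 was compared with P5 over all 16449 genes that passed, by the quasi-likelihood test in edgeR 4.0.16 (R 4.3.3). The fit was tested on simulated counts in which far fewer genes differed than were called here. That run checked the recovery of known changes and does not measure the accuracy of these calls. SE is the log2 fold change over the square root of the F statistic, and 95% intervals use the t distribution with the degrees of freedom of the fit. Replicates of one age differed by 30.5 to 141 times sampling noise (chi-square per degree of freedom), so the spread between samples, not depth, sets the precision. Levels per kilobase use the GENCODE M21 transcript of the table's RefSeq identifier for 32 members and the longest transcript for Hmgcs1 and Msmo1.

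All 34 members are named, and of each other list up to 4 called genes, those with the greatest absolute log2 fold change. Me1, Dhdds, Ggps1, Lrp2, Lrp3, Lrp6, Lrp11, Lrpap1, Ldlrad3, Reln, Abca7, Stard3, Osbpl1a, Osbpl2, Abcg4 and the markers of other cells were named after their values were seen, to complete counts. Acat3 and Ctsb were named for the sequence or exons they share with members. The members and lists were chosen with earlier results of these data known. Alternatives were DESeq2 1.42.0, edgeR's likelihood ratio and exact tests, upper-quartile and DESeq2 scaling, no filter, a filter of 1 CPM in 3 samples and leaving out single samples. Values of certain genes are not reported here.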

Additional observations from a re-analysis of the deposited data

How the results depend on the processing

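Over 13 alternative settings, 404 of 441 values of single members kept their sign and their side of the threshold, 15 lost the call, 6 gained it and 16 turned sign, the cause of which was not tested. Members higher at E18 numbered 16 to 21 and members lower 2 to 3, and the median log2 fold change of all genes stayed between -0.0148 and 0.0129. The count of all genes called, 7135, was 4575 to 8796 when 1 sample was left out, lowest without E18 replicate 3 and highest without P5 replicate 8. The median log2 fold change of the mevalonate steps was 0.64 to 1.17 on leaving out 1 sample, highest without P5 replicate 6. Signs turned only for members not called. With 1 CPM required in 3 samples, Abca1 was at -8.3e-05. On leaving out 1 sample, log2 fold changes ran from -0.22 to 0.10 for Pmvk, -0.144 to 0.029 for Scap, -0.0303 to 0.14 for Lrp8, -0.25 to 0.47 for Abca1, -0.19 to 0.32 for Abcg1, -0.0401 to 0.32 for Ebp and -0.28 to 0.30 for Apoe. Nr1h3 was not tested under the 1 CPM filter. No paired analysis was possible because the ages share no replicate number (1, 3 and 4 against 6, 8 and 9). The fits without a sample leave 2 samples at one age. With 3 samples a group and CVs at P5 of 49.6% for Abca1 and 40.5% for Apoe, small changes of these members were not detectable.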
